A study of Mus musculus with 25 samples.

Results

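The mitochondrial ribosomal protein genes were taken as every gene in the deposited count table whose symbol begins with Mrpl or Mrps and a number, leaving out symbols marked as pseudogenes. The rule found 78 genes of the 55487 in the table, 49 named Mrpl and 29 named Mrps. All 78 passed the filter on low counts, which kept 19155 genes. Another 6 symbols were pseudogenes and were left out. The largest, Mrpl23-ps1, held 3722 counts over all libraries against 10191 for Mrpl23, so the values of Mrpl23 are uncertain. Placed by what their products are known to do, 51 members lie in the large subunit and 26 in the small subunit. Mrps36 is no part of this ribosome in current nomenclature, since its product belongs to the 2-oxoglutarate dehydrogenase complex, and it was kept because the rule keeps it. Mrps18a and Mrps30 carry small-subunit names but lie in the large subunit.

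The study sequenced RNA of the Achilles tendon, pulverised whole, from 3-month-old mice, and deposited 25 libraries. Wild-type (WT) mice with cage activity gave 7 libraries, 4 female and 3 male. WT mice with wheel running, AMPKcKO mice with cage activity and AMPKcKO mice with wheel running gave 6 libraries each, 3 female and 3 male. AMPKcKO, written cKO here, is a conditional knock-out, and the series title names loss of AMPKα1, which Prkaa1 encodes and which carries the kinase activity of the cell's energy sensor. Library names begin with the same prefix except for 2 cage libraries, which are replicate 3 of the cKO males and replicate 4 of the WT females. No running library has their prefix, so for these 2 it cannot be told apart from cage activity, and no value within that prefix can be given. The labels do not give the driver of the Cre recombinase, the cells in which it acts or the strain, and they do not say whether animals were pooled. They do not state either that each library came from its own animal, so p-values measure the spread between these libraries.

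The mitochondrial ribosome sits in the mitochondrial matrix and translates the few messenger RNAs of mitochondrial DNA, all of which code for subunits of oxidative phosphorylation. Its ribosomal RNAs come from mitochondrial DNA, while every one of its proteins is encoded in the nucleus, made in the cytosol and imported. Many of these proteins descend from bacterial ribosomal proteins, and the others are mitochondria-specific and are named so in the unified nomenclature. Tendon is sparse in cells and mitochondria, whereas skeletal muscle, which joins the Achilles tendon, is rich in both.

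The promoters of the family are shown first, since they hold known motifs in larger shares than the promoters of all genes do. RefSeq promoter sequences of GRCm38.p6, which run from 250 bases before to 50 bases after a gene's start, were matched by symbol for 69 of the 78 members. Both strands were searched for the palindromic consensus of nuclear respiratory factor 1, whose letters are the capitals in the Mrpl9 promoter, for CCGGAAG, a core bound by ETS factors such as GABP, and for AAGATGGCG, the consensus of YY1. The ETS core was present for 26 of 69 members (37.7%) and for 9.93% of all genes with a promoter entry. The YY1 motif was present for 8 members (11.6%) against 1.64% of all genes, and the nuclear respiratory factor 1 motif for 3 members (4.3%) against 1.07%. At least 1 of the 3 motifs was present for 35 members (50.7%) and for 12.05% of all genes. The windows of members also held more G and C, with a median of 58.7% against 52.7% for all promoters. A match describes letters in the window and does not show binding.

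Below, 6 promoters are printed on the strand of the gene, from 75 bases before the start to at most 24 bases from it. The 6 genes were picked by hand, and for a gene with several RefSeq entries the one with most matches is printed. All 6 hold a match, whereas 35 of 69 members held any of the 3 motifs, so they do not stand for the family. Matches to the 3 motifs are in capitals. Mrpl9 shows the nuclear respiratory factor 1 motif, 28 bases before the RefSeq start, and Mrpl43 and Mrpl58 each show 2 ETS cores. In Mrps12 the ETS core begins at base 2 of the transcript. Mrps18a has an ETS core 26 bases before the start. For Mrpl9 and Mrps18a the RefSeq start used here lies 18 bases downstream of the gene's start in GENCODE M21, which gives the gene coordinates printed further on. Mrps27 has an ETS core on the other strand, printed as its reverse complement, and the YY1 motif from base 15.
Mrpl9, chr3:94443261-94443347, plus strand: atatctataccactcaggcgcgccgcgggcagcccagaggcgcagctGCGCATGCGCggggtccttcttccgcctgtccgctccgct
Mrpl43, chr19:45006419-45006517, minus strand: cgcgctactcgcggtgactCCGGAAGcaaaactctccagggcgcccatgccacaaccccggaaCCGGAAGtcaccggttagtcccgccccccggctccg
Mrpl58, chr11:115403677-115403775, plus strand: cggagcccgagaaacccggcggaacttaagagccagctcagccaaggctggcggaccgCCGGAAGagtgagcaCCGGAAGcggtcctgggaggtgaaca
Mrps12, chr7:28741798-28741896, minus strand: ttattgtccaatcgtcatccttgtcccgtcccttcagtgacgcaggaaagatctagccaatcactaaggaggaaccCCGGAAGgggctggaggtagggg
Mrps18a, chr17:46110929-46111015, plus strand: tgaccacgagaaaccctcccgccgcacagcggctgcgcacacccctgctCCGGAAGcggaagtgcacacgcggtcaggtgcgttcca
Mrps27, chr13:99344711-99344809, plus strand: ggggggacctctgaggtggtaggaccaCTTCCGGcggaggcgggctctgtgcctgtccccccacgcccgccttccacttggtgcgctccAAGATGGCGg

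The members lie on 17 chromosomes and often share a start region with another gene. In the GENCODE M21 annotation of GRCm38, 18 of 78 members (23.1%) had a protein-coding neighbour transcribed away from a start within 1000 bases, against 6.8% of all 21938 protein-coding genes. Mrps12, on chromosome 7, starts 172 bases from Sars2, the mitochondrial seryl-tRNA synthetase. Mrpl49 starts 59 bases from Fau, which encodes a cytosolic ribosomal protein, and Mrpl32 starts 75 bases from Psma2, a proteasome subunit. Exons of 33 members overlapped an exon of another gene. The overlap was largest for Mrpl53 with Gm42688 on the same strand (88% of exon bases) and for Mrps25 with Nr2c2 on the opposite strand (69.8%). The strand of the libraries is not given in the sources used here, so counts of such pairs are uncertain.

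Whole-series facts that touch these genes are brief. Libraries held 13193228 to 45724243 counts, with a median of 24538109. Prkaa1 was at 13.4 to 31.2 CPM, counts scaled to library size with TMM factors, in the 13 WT libraries and at 13.9 to 22.6 CPM in the 12 cKO libraries. The ranges overlapped, and the difference did not pass the test (log2 fold change -0.36 ± 0.12 SE over both activities, edgeR adjusted p = 0.981). The library cKO cage female replicate 3 had no Cre and no eGFP counts. WT running male replicate 2 had no Cre counts but eGFP at 119 CPM. Below, these are called the 2 libraries set apart by reporter counts. They were the only cKO library without Cre counts and the only WT library with eGFP above 10 CPM. However, eGFP did not follow genotype. Replicate 2 of the cKO cage females and replicates 2 and 3 of the males had Cre counts but eGFP at 1.13 to 2.6 CPM. In every cKO running library and in replicate 1 of the cKO cage females and males, eGFP was above 10 CPM. No WT cage library was above 10 CPM. The tendon marker Tnmd was present at 15.3 to 83.6 CPM in every library. Skeletal muscle markers were present in every library too, and 36 of them together took 4.27% to 21.3% of all counts. In bulk tissue, fewer cells of a type and less RNA per cell cannot be told apart.

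Mitochondrial ribosomal protein transcripts were well above the typical gene in level. In deposited FPKM, which is scaled by length, the median member had a mean of 18.5 against 3.88 for all genes tested, and 77 of 78 members were above that all-gene median. No member had fewer than 40 counts in any library. Levels ranged 50.7-fold from the highest member to the lowest. Mrpl42, a mitochondria-specific large-subunit protein, was highest at 195 ± 42.4 FPKM (SD, n = 25), with libraries from 81.2 to 293.9. Mrps21 followed at 112 ± 23.7, then Mrpl52 at 91.2 ± 20.5 and Mrpl33 at 73.2 ± 19.3. In these 3 genes the libraries spanned 75.2 to 184.8, 60.9 to 147.9 and 31.2 to 116.2 FPKM, so their ranges overlapped. Their order within single libraries was not examined.

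The lowest members were Mrpl19 at 3.85 ± 1.87 FPKM, Mrps2 at 4.51 ± 0.871, Mrpl47 at 5.43 ± 1.45 and Mrpl1 at 6.79 ± 0.991. Mrpl19 shares 36.0% of its exon bases with Gcfc2 on the opposite strand. The low and high ends of the order did not overlap, since no library had Mrpl19 above 7.98 FPKM. Between classes the medians were close: 18.7 FPKM for the 29 bacterial-type proteins of the large subunit and 19.1 for its 22 mitochondria-specific proteins. For the small subunit the medians were 21.2 over 16 bacterial-type and 16.6 over 10 mitochondria-specific proteins. FPKM of short transcripts depends on the effective length used, which was not examined.

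**Figure D1:**
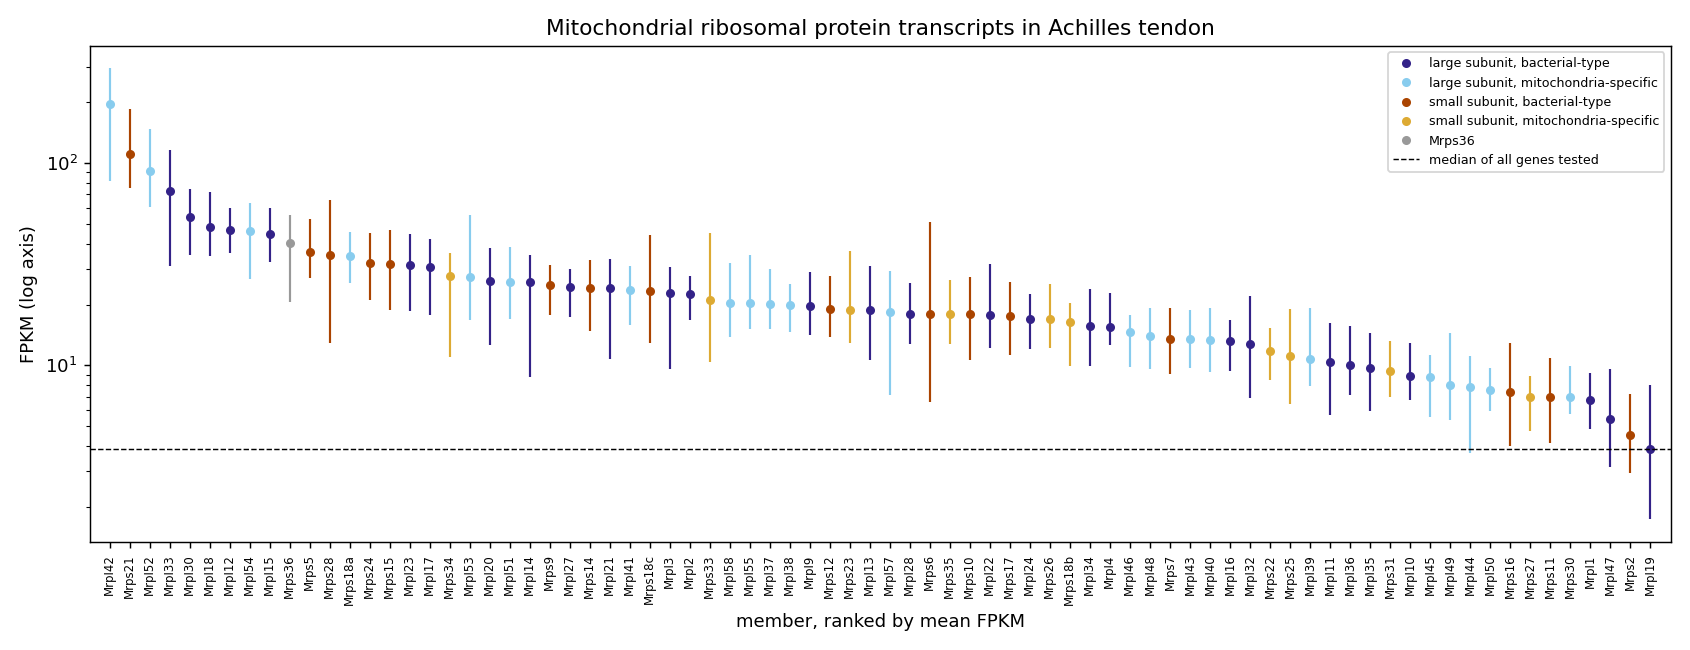
Deposited FPKM of the 78 members on a log axis, ranked by mean; points are means over 25 libraries, vertical lines run from the lowest to the highest library, colours give the class, and the dashed line is the median of the mean FPKM of all genes tested (3.88). Mrpl42 stands at 195 FPKM and Mrpl19 at 3.85 FPKM, beside the all-gene median.

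Several members have well-known roles, and their levels differed. Mrps12, which helps to form the decoding centre, was at 19.1 ± 3.77 FPKM. Mrps5, which lies near the decoding site, was at 36.5 ± 6.49. Mrpl12, the stalk protein that recruits translation factors, was at 46.7 ± 6.61. Mrpl45, which lies at the peptide exit and anchors the ribosome to the inner membrane, was at 8.74 ± 1.34, and Mrpl44, a mitochondria-specific protein related to ribonuclease III, was at 7.81 ± 1.66. Their ranges show that Mrpl12 (36.0 to 59.9 FPKM) stood above Mrpl45 (5.56 to 11.2) and Mrpl44 (3.71 to 11.1) in every library, while Mrpl45 and Mrpl44 overlapped.

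The 3 genes related to bacterial S18 differ in where their proteins sit: Mrps18a in the large subunit, Mrps18b and Mrps18c in the small subunit. Mrps18a was at 34.6 ± 4.15 FPKM, Mrps18c at 23.4 ± 7.96 and Mrps18b at 16.3 ± 2.77. The range of Mrps18a was 25.5 to 45.8 FPKM and that of Mrps18b was 9.95 to 20.4, which do not overlap, whereas Mrps18c ran from 12.9 to 44.0 and overlapped both. Mrps30 was at 6.97 ± 0.839 FPKM.

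Members also varied less between libraries than the typical gene tested. The median coefficient of variation of FPKM over the 25 libraries was 19.9% for members and 40.9% for all genes tested. Members lay at higher levels than the typical gene, and no comparison with genes of similar level was made. The most variable were Mrpl19 (48.6%) and Mrps6 (46.4%), and Mrps6 shares exon bases with Slc5a3 on the same strand. As a share of all counts, the 78 members together took 0.123% to 0.167% in every library. The group means of this share were 0.139% ± 0.0159 in WT cage, 0.143% ± 0.00858 in WT running, 0.141% ± 0.00999 in cKO cage and 0.138% ± 0.00747 in cKO running libraries (SD), and the groups overlapped.

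CPM scaled by TMM factors spread more widely, because those factors ranged from 0.703 to 1.41. The summed CPM of the members was 1282 to 1667 in WT cage libraries, with a median of 1415. It was 1028 to 1856 (median 1392) in WT running, 1262 to 2149 (median 1456) in cKO cage and 945 to 1534 (median 1318) in cKO running libraries. All 4 groups overlapped, and the highest value came from cKO cage male replicate 2. The ratio of large-subunit to small-subunit CPM was 1.94 to 2.47, with group means between 2.15 and 2.28.

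Whether loss of AMPKα1 changed the family was tested first at cage activity. No member passed the edgeR quasi-likelihood test with Benjamini-Hochberg adjustment, where percent called over all genes was 0 in either direction, and no member had an unadjusted p under 0.05. DESeq2 and limma-voom with library quality weights called 0 members too. The median log2 fold change of cKO over WT was 0.08 over members and 0.002 over all genes tested, with 60 of 78 members above 0. Leaving out cKO cage male replicate 2 turned the median to -0.01, and leaving out cKO cage female replicate 1 gave 0.13. No member had groups that did not overlap (all genes: 0.0209% higher, 0.0261% lower).

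The smallest p values at cage activity belonged to Mrps2, Mrpl9 and Mrpl44 among higher values and to Mrps6, Mrps10 and Mrpl40 among lower ones. Mrps2, a small-subunit protein with a bacterial counterpart, had 5.92, 8.09 and 9.18 CPM as lowest, median and highest in WT and 7.38, 9.77 and 13.2 in cKO. These groups overlapped (log2 0.35 ± 0.19, edgeR adjusted p = 1). Mrps6 had 8.33, 11.7 and 24.1 CPM in WT and 8.73, 10.4 and 13.6 in cKO, which also overlapped (log2 -0.29 ± 0.20, edgeR adjusted p = 1). The others were at 0.19 ± 0.11 for Mrpl9, 0.31 ± 0.20 for Mrpl44, -0.11 ± 0.13 for Mrps10 and -0.11 ± 0.15 for Mrpl40 (log2 fold change ± SE).

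In runners, most members were lower in cKO than in WT libraries with TMM scaling, but none passed the test. The median log2 fold change was -0.21 over members and 0.01 over all genes, and 71 of 78 members were below 0. It was -0.12 without cKO running male replicate 2. None was called by edgeR (percent called over all genes: 0 higher and 0 lower), 11 members (14.1%) had an unadjusted p under 0.05 against 11.3% of all genes, and the smallest adjusted p was 0.387. DESeq2 and limma-voom also called 0. The median was -0.21 over the large subunit and -0.19 over the small subunit. No member had groups that did not overlap, against 0.282% of all genes higher and 0.094% lower.

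Mrpl37 (chr4:107055874-107066868, minus strand), a mitochondria-specific large-subunit protein, had the smallest p. Its lowest, median and highest CPM were 23.2, 26.9 and 41.8 in WT runners and 14.5, 22.8 and 25.3 in cKO runners. The groups overlapped only between 23.2 and 25.3 CPM (log2 -0.47 ± 0.16, edgeR adjusted p = 0.387). Mrpl44 (chr1:79776018-79781445, plus strand) had 8.98, 10.01 and 14.5 CPM in WT and 3.15, 7.45 and 10.4 in cKO runners. These groups overlapped as well, and the lowest library, at 3.15, was cKO running male replicate 2, which also had the fewest muscle transcripts (log2 -0.56 ± 0.21, edgeR adjusted p = 0.392). Mrpl16 was at -0.37 ± 0.15. On the other side, Mrps6 was at 0.18 ± 0.21, Mrps33 at 0.13 ± 0.19 and Mrps28 at 0.10 ± 0.21, and the last 2 changed sign under some alternatives.

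Running against cage activity in WT gave no member past the test, where 0.104% of all genes were called higher and 0.0261% lower. An unadjusted p under 0.05 was seen for 2 members (2.56%) against 9.74% of all genes. DESeq2 and limma-voom called 0 members and 0.971% and 0.47% of all genes. Members were centred near 0, with a median of 0.04 against 0.003 for all genes and 46 of 78 above 0. The sign was not stable: the median was -0.0049 without WT running male replicate 1, -0.02 without WT running female replicate 3, 0.12 without WT running male replicate 3 and -0.0084 with the replicate block. Mrps12 had 7.66, 8.56 and 9.84 CPM in WT cage and 8.32, 10.2 and 14.0 in WT running libraries. The groups overlapped (log2 0.28 ± 0.14, edgeR adjusted p = 0.53), and its divergent neighbour Sars2 was at 0.10 ± 0.23. Mrpl10 was at 0.20 ± 0.13 and Mrpl13 at 0.23 ± 0.16. Mrps6 was at -0.46 ± 0.20 with edgeR adjusted p = 0.439, Mrps25 at -0.20 ± 0.09 and Mrpl39 at -0.21 ± 0.12. No member had groups that did not overlap (all genes: 0.292% higher, 0.251% lower).

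In cKO, running libraries had lower values than cage libraries for 73 of 78 members, again without a call by edgeR. The median was -0.27 over members and 0.03 over all genes tested, and it was -0.15 without cKO cage male replicate 2 and -0.17 without cKO running male replicate 2. Of all genes, 0.0313% were called higher and 0.0104% lower. Unadjusted p was under 0.05 for 18 members (23.1%) and for 13.6% of all genes. No member had groups that did not overlap, against 0.392% of all genes higher and 0.496% lower.

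Mrpl9, Mrpl18 and Mrps5 came closest to the threshold. Mrpl9 (chr3:94443318-94451130, plus strand), a bacterial-type large-subunit protein whose promoter is printed above, had 17.7, 20.4 and 27.95 CPM in cKO cage and 13.8, 15.7 and 17.95 in cKO running libraries. Only the top of the running group reached the bottom of the cage group (log2 -0.43 ± 0.12, edgeR adjusted p = 0.16). Mrpl18 (chr17:12911349-12916345, minus strand), which is also known to bring 5S ribosomal RNA into mitochondria, had 40.9, 48.8 and 94.2 CPM against 24.2, 34.6 and 45.0. The groups overlapped between 40.9 and 45.0 CPM (log2 -0.72 ± 0.20, edgeR adjusted p = 0.16), and Tcp1, which overlaps Mrpl18 on the opposite strand, was at -0.35 ± 0.17. Mrps5 (chr2:127587222-127606829, plus strand) had 28.02, 31.2 and 54.2 CPM against 20.5, 26.1 and 28.2, with the groups overlapping between 28.02 and 28.2 CPM (log2 -0.48 ± 0.13, edgeR adjusted p = 0.162).

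The calls depended on the test. DESeq2 called 3 members (3.85%) in this comparison, Mrpl9, Mrpl18 and Mrps5, against 1.83% of all genes with an adjusted p. Limma-voom with library quality weights also called 3, Mrpl9, Mrpl18 and Mrpl44, against 2% of all genes. The highest cage value of Mrpl9, Mrpl18 and Mrps5 was in cKO cage male replicate 2, and without that library the log2 fold changes were -0.34 for Mrpl9, -0.54 for Mrpl18 and -0.32 for Mrps5. On log2 of deposited FPKM plus 1, Mrpl9 was at 0.02, so its sign depended on the unit. On the higher side Mrpl20 was at 0.07 ± 0.16, Mrps12 at 0.06 ± 0.14 and Mrpl52 at 0.05 ± 0.15, and the signs of Mrps12 and Mrpl52 changed when single libraries were left out.

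**Figure D2:**
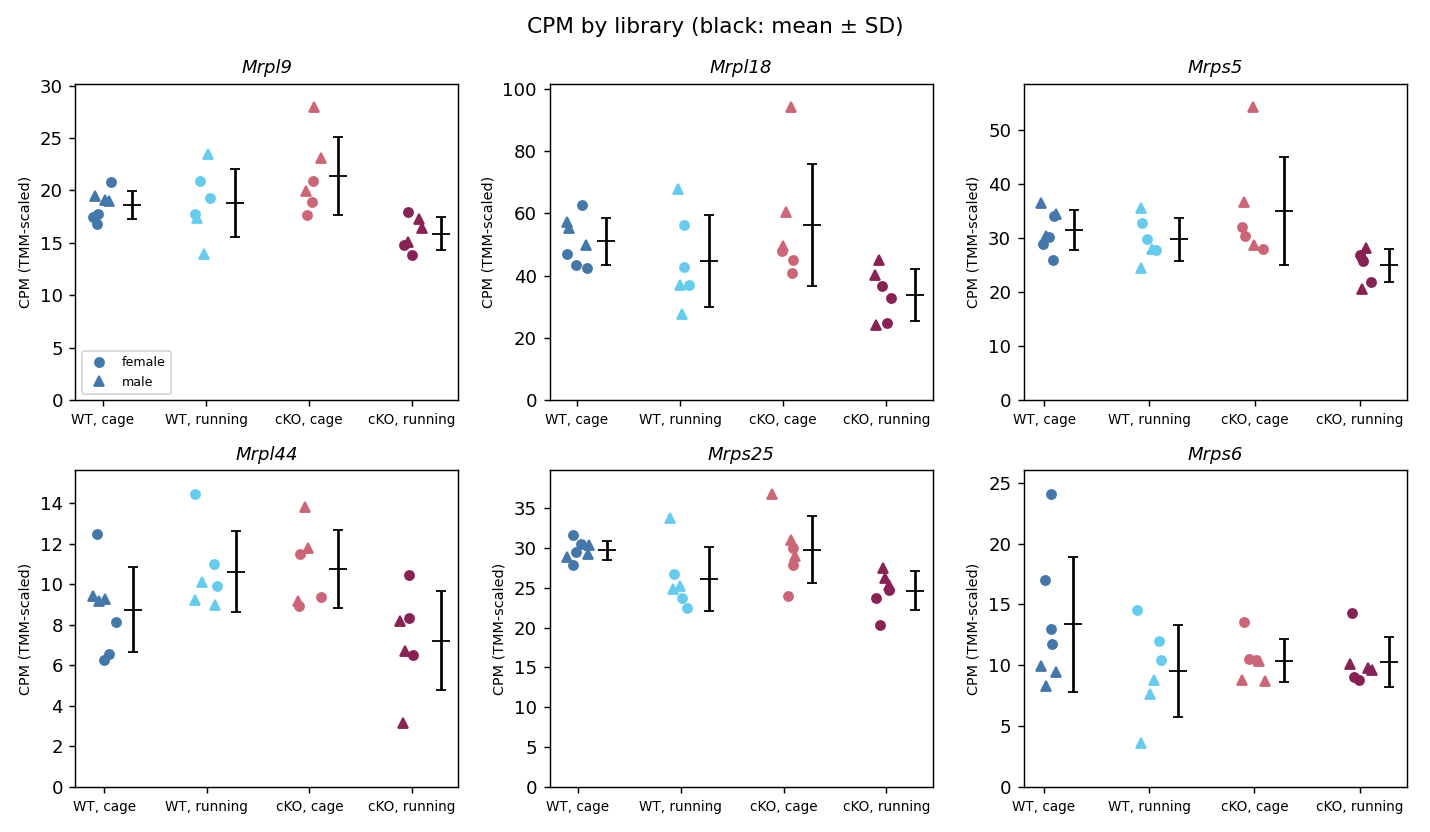
TMM-scaled CPM of 6 members in each library by group; circles are female and triangles male libraries, and black bars give mean ± SD of each group. The cKO running libraries of Mrpl9 lie between 13.8 and 17.95 CPM, and 1 cKO cage male library is the highest for Mrpl9, Mrpl18 and Mrps5.

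The 2 running effects were compared by the interaction term, which asks whether running acted differently in cKO and WT. No member passed, as no gene of the 19155 did (percent called 0 higher and 0 lower), and the smallest adjusted p among members was 0.672. Unadjusted p was under 0.05 for 8 members (10.3%) against 7.19% of all genes, and DESeq2 and limma-voom called 0. The median was -0.28 over members and 0.02 over all genes, with 75 of 78 below 0. It was -0.19 without cKO cage male replicate 2. Mrpl44 was at -0.87 ± 0.29 (edgeR adjusted p = 0.672), Mrpl37 at -0.58 ± 0.22 and Mrpl9 at -0.44 ± 0.16. Mrps6 was at 0.46 ± 0.28, Mrps28 at 0.12 ± 0.30 and Mrpl52 at 0.05 ± 0.21. This contrast shares its libraries with the comparisons above and is not a further piece of evidence.

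Averaged over activity or genotype, edgeR called no member either. For cKO against WT, where 0.00522% of all genes were called higher and 0 lower, 62 of 78 members were below 0 with a median of -0.06. That median was -0.03 without WT running male replicate 1 (49 of 78 below 0) and -0.03 without cKO running male replicate 2. It was -0.11 without WT running male replicate 3, -0.12 without cKO cage male replicate 2 and -0.10 without cKO running female replicate 3. No member had an unadjusted p under 0.05 there, against 3.78% of all genes, and DESeq2 and limma-voom called 0 members and 0.0104% and 0% of all genes. Mrps12 was at -0.19 ± 0.10, Mrps35 at -0.17 ± 0.09 and Mrpl53 at -0.24 ± 0.14, and Mrps33, Mrps24 and Mrpl20 were at 0.13 ± 0.13, 0.10 ± 0.12 and 0.08 ± 0.11. For running against cage, 0.611% of all genes were called higher and 0.814% lower, and the member median was -0.09 with 63 of 78 below 0. Without TMM factors that median was 0.05, against 0.18 for all genes. Unadjusted p was under 0.05 for 11 members (14.1%) against 14.9% of all genes. DESeq2 called 2 members (2.56%), Mrps25 and Mrpl18, against 4.23% of all genes with an adjusted p, and limma-voom called 1 (1.28%), Mrpl18, against 4.76%. The member median was -0.03 without cKO cage male replicate 2, -0.05 without cKO running male replicate 2 and -0.14 without either WT running female replicate 3 or cKO running female replicate 3.

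Mrps25 (chr6:92169525-92184033, minus strand), a mitochondria-specific small-subunit protein, had the smallest p among members for running averaged over the genotypes. It had 27.9, 29.5 and 31.7 CPM in WT cage, 22.5, 25.1 and 33.8 in WT running, 23.9, 29.5 and 36.8 in cKO cage and 20.3, 25.04 and 27.4 in cKO running libraries. All groups overlapped apart from WT cage and cKO running (log2 -0.24 ± 0.07 for running, edgeR adjusted p = 0.0792). That pair differs in both genotype and activity, and the share of all genes that do not overlap in it is not given, so nothing is drawn from it. Nr2c2, which shares most of the exon bases of Mrps25, was at 0.05 ± 0.07. On log2 of FPKM plus 1 Mrps25 was at 0.02. Mrpl18 was at -0.46 ± 0.14 (edgeR adjusted p = 0.101) and Mrps5 at -0.28 ± 0.09 (edgeR adjusted p = 0.133). Mrps12, Mrpl20 and Mrpl40 were at 0.17 ± 0.10, 0.12 ± 0.11 and 0.06 ± 0.11.

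Males and females were compared over 12 and 13 libraries. No member passed with edgeR, where 0.318% of all genes were called higher in males and 0.298% lower. Unadjusted p was under 0.05 for 4 members (5.13%) against 10.1% of all genes. Mrps6 (chr16:92058270-92112227, plus strand), the small-subunit relative of bacterial S6, had 8.75, 12.03 and 24.1 CPM in females and 3.57, 9.12 and 10.4 in males. The sexes overlapped between 8.75 and 10.4 CPM (log2 -0.55 ± 0.14, edgeR adjusted p = 0.0947). Slc5a3, which shares 10.4% of the exon bases of Mrps6 on the same strand, was at -0.57 ± 0.16 (edgeR adjusted p = 0.129), and it had 83.1 CPM on average against 10.97 for Mrps6, so reads could be shared between them.

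Mrpl50 (chr4:49512596-49521093, minus strand), a mitochondria-specific large-subunit protein, had 10.3, 12.6 and 15.1 CPM in females and 9.79, 15.9 and 20.4 in males. The sexes overlapped (log2 0.31 ± 0.09, edgeR adjusted p = 0.131). DESeq2 and limma-voom with quality weights each called 2 members by sex (2.56%), Mrps6 and Mrpl50, against 1.31% and 2.31% of all genes. Mrps25 was at 0.15 ± 0.07, Mrpl16 at 0.22 ± 0.11, Mrpl33 at -0.20 ± 0.11 and Mrpl40 at -0.18 ± 0.11. The median of members was 0.03 with TMM, -0.01 without cKO cage male replicate 2, -2e-04 without WT running male replicate 1 and -0.09 without scaling factors, against -0.10 for all genes without them, so no direction is given for the family.

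**Figure D3:**
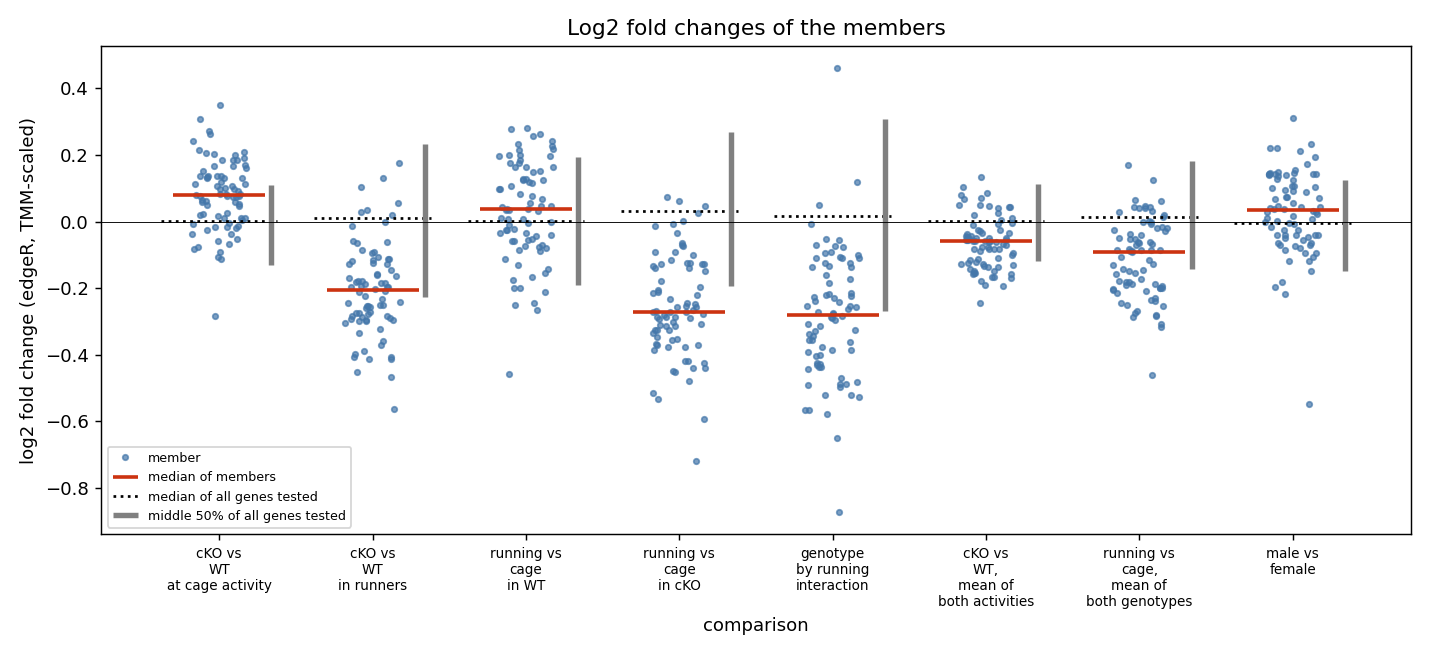
Log2 fold change of each of the 78 members (points, edgeR with TMM scaling) in 8 comparisons; red bars are the median of members, dotted bars the median and grey bars the middle 50% of all 19155 genes tested. The member median was -0.21 in runners, -0.27 for running in cKO and -0.28 for the interaction, and no member was called in any comparison; without TMM factors these 3 medians were -0.04, -0.01 and -0.06 beside all-gene medians of 0.16, 0.29 and 0.21.

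The lower values in cKO runners came with lower muscle markers. In cKO runners the 36 muscle markers took 9.91% ± 3.54 of counts (SD, n = 6), against 16.1% ± 4.32 in WT runners and 14.3% ± 4.77 in cKO cage libraries. In the running comparison within cKO, all 25 fast-muscle and all 11 slow-muscle markers were below 0, with medians of -0.51 and -0.54, and none passed the test. Markers of Schwann cells moved the other way: all 10 were above 0, with a median of 2.10, and their summed CPM was 112 to 1504 in cKO running against 56.3 to 350.3 in cKO cage libraries. Most markers of macrophages (11 of 11, median 0.49), mast cells (7 of 7, 0.92), adipocytes (9 of 10, 0.22) and mural cells (8 of 10, 0.37) were above 0 too. Endothelial (4 of 10, median -0.04) and tenocyte markers (7 of 15, -0.02) were mostly not. The mural list shares Des with the fast-muscle list. The median of the summed mural CPM was 2511 in cKO cage and 2454 in cKO running libraries, so that sum was not higher. The part of these cell types in the result was not tested. Without the 2 libraries set apart by reporter counts, the member median was -0.21 in runners and -0.30 for running in cKO. That does not separate eGFP from the cKO running group, whose libraries all had eGFP above 10 CPM. Without the 2 libraries of the other name prefix the member median was -0.20 in runners and -0.30 for running in cKO. It was 0.01 for running in WT and -0.12 for running over both genotypes. Without TMM factors the all-gene median was 0.16 in runners and 0.29 for running in cKO, while the member medians were -0.04 and -0.01. Relative to the all-gene median the members were thus lower by a similar amount under both scalings, -0.22 and -0.20 in runners and -0.30 and -0.31 for running in cKO. A scaling factor shifts all genes of a library alike, so this distance could hardly change and is not a further piece of evidence.

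A muscle index was therefore computed for each library, as the mean log2 CPM of the 36 muscle markers, centred at 0. Each gene was tested for a slope on it within the 4 groups and with sex in the fit. The index ran from -2.03 in cKO running male replicate 2 to 1.38, and its group means were 0.14 in WT cage, 0.11 in WT running, 0.22 in cKO cage and -0.50 in cKO running libraries. The members' transcripts rose with the index: 54 of 78 (69.2%) were called higher and 0 lower by edgeR, against 17.3% and 14.3% of all genes. A total of 77 members had a positive slope. Leaving out single libraries gave 40 called members without cKO cage male replicate 2 and 66 without WT cage female replicate 1. The median slope was 0.22 log2 units per unit of index over members and -0.03 over all genes tested. These counts rest on the TMM factors: without them 6 members were called higher (7.69%) and 8 lower (10.3%), against 5.41% and 51.4% of all genes, and the medians were -0.04 and -0.30. The distance of members from the all-gene median was 0.26 under both scalings, which could hardly differ, since a scaling factor shifts all genes of a library alike. The index uses the same libraries and the same TMM factors, and what sets the slope was not tested.

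**Figure D4:**
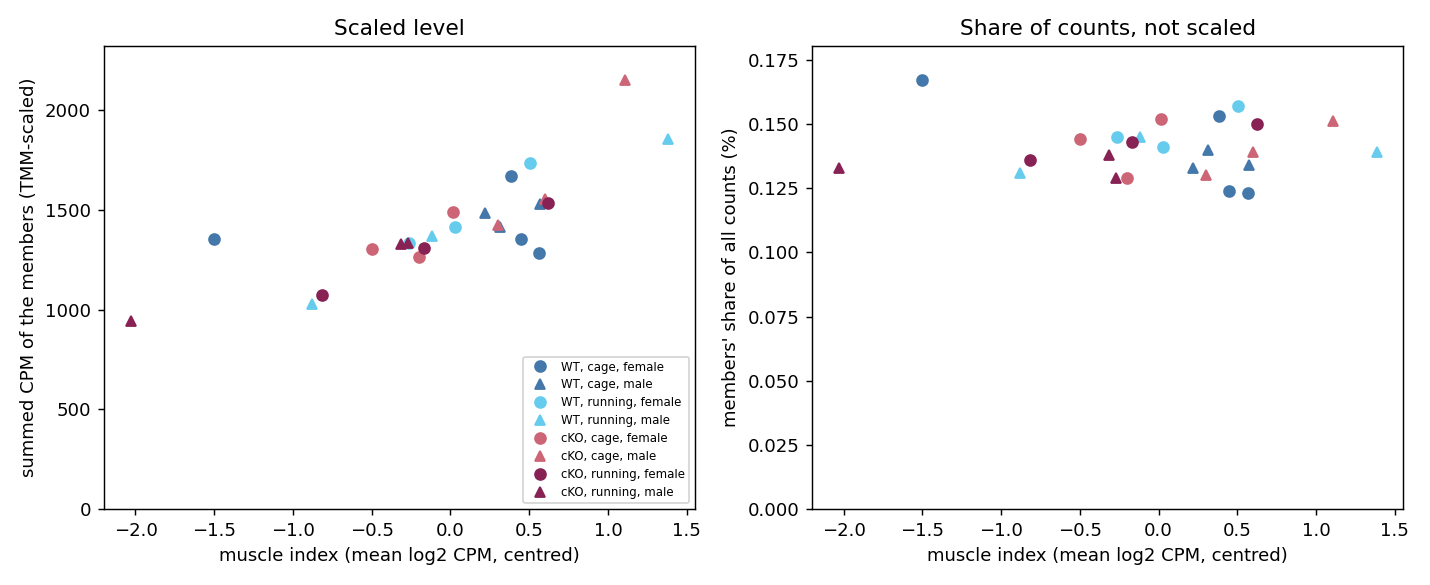
Each library's muscle index (horizontal axis) against the summed TMM-scaled CPM of the 78 members (left) and their unscaled share of all counts in percent (right); colours give the group, circles female and triangles male libraries. The summed CPM ran from 945 to 2149 and was 1856 and 2149 in the 2 libraries with the highest index, while the share stayed between 0.123% and 0.167% in every library.

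Mrpl42 (chr10:95480805-95501940, minus strand), the member with the highest FPKM, was also the steepest on the index. Its lowest, median and highest CPM were 63.5, 87.6 and 112 in WT cage, 58.7, 80.8 and 141 in WT running, 62.5, 92.6 and 172 in cKO cage and 25.6, 71.4 and 109 in cKO running libraries. The groups overlapped, and the slope was 0.59 ± 0.07 (edgeR adjusted p = 1.71e-07). Mrps36, the subunit of 2-oxoglutarate dehydrogenase, had a slope of 0.50 ± 0.09, Mrps18b of 0.45 ± 0.06 and Mrpl35 of 0.43 ± 0.08, all called. These 4 were among the 6 members that were still called higher without TMM factors, at 0.33, 0.24, 0.19 and 0.16.

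The lowest slopes were those of Mrps6 at -0.12 ± 0.10, Mrpl20 at 0.00 ± 0.08, Mrpl39 at 0.05 ± 0.06 and Mrps25 at 0.05 ± 0.04, none of which was called. By size the flattest were Mrpl20, Mrpl39, Mrps25 and Mrpl52, the last at 0.07 ± 0.07. Without TMM factors Mrps6, Mrpl20, Mrpl39, Mrps25 and Mrpl52 were called lower by edgeR, at -0.37, -0.26, -0.21, -0.21 and -0.19. Mrpl20, a bacterial-type large-subunit protein, had 7.503, 12.4 and 17.4 CPM in WT cage, 10.8, 13.9 and 17.4 in WT running, 10.5, 13.4 and 17.2 in cKO cage and 12.1, 14.4 and 16.3 in cKO running libraries, and the groups overlapped.

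The other members with known roles lay between. Slopes were 0.38 ± 0.08 for Mrpl44, 0.36 ± 0.07 for Mrpl45, 0.29 ± 0.07 for Mrpl12, 0.28 ± 0.06 for Mrps30, 0.19 ± 0.05 for Mrps5 and 0.17 ± 0.05 for Mrps18a, all called higher with TMM. Mrps12 (0.16 ± 0.07) and Mrps18c (0.09 ± 0.10) were not called. The large subunit had 37 of 51 members called higher and the small subunit 16 of 26, against 17.3% of all genes, with medians of 0.24 and 0.20. Without TMM factors 4 and 1 were called higher and 5 and 3 lower, with medians of -0.02 and -0.07.

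**Figure D5:**
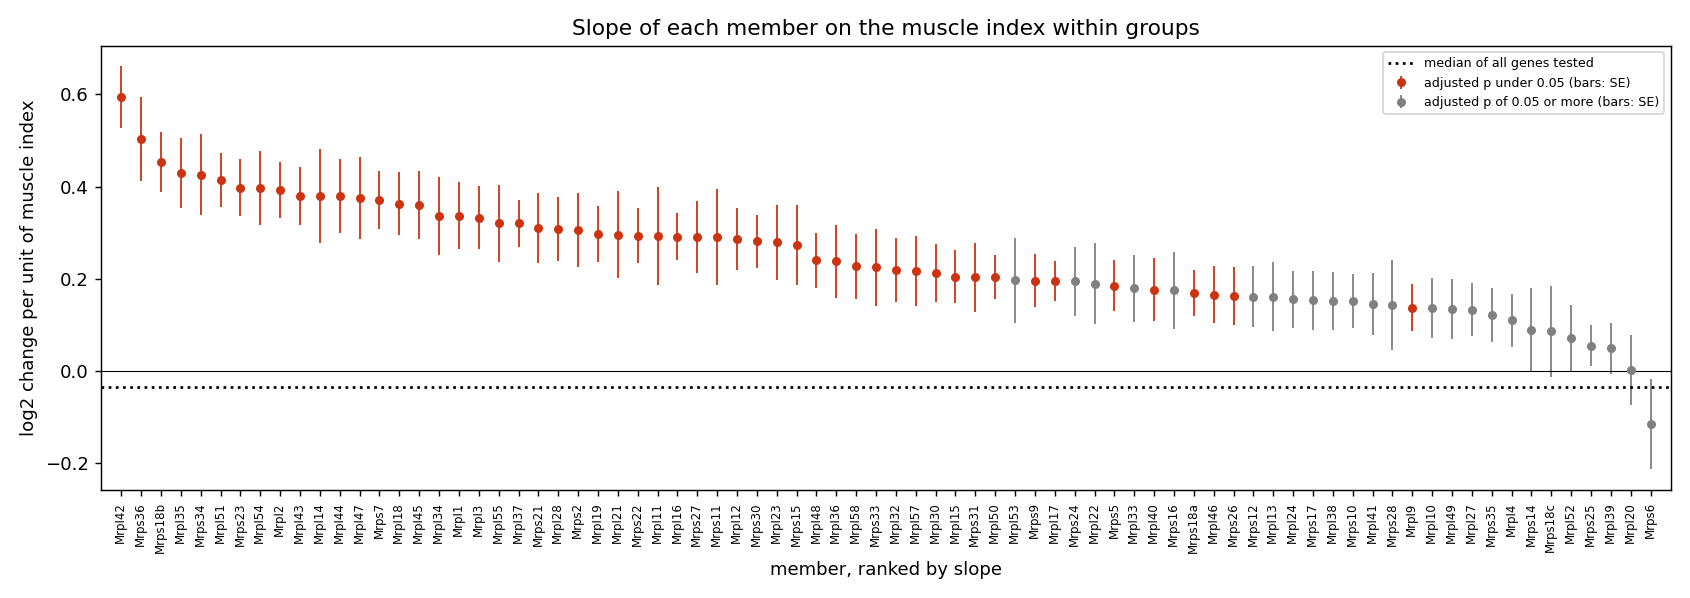
Slope of each member on the muscle index, in log2 units per unit of index, ranked; bars are standard errors, red points have an edgeR adjusted p under 0.05 with TMM scaling and grey points do not, and the dotted line is the median of all genes tested (-0.03). Mrpl42 is highest at 0.59 and Mrps6 lowest at -0.12; without TMM factors the median of members turned from 0.22 to -0.04.

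A fit with the muscle index as a further term gave other member medians. The median went from -0.21 to -0.06 in runners, from -0.27 to -0.08 for running in cKO and from -0.28 to -0.09 for the interaction. In runners 88.5% of members and 63.3% of all genes came closer to 0, for running in cKO 88.5% and 65.4%, and in the interaction 91% and 64.6%. The shares were 71.8% and 55.8% for genotype at cage activity, 73.1% and 58.4% for genotype over both activities, and 70.5% and 58.4% for running over both genotypes. They were 56.4% and 49.4% for running in WT and 52.6% and 52.8% by sex, where the member median went from 0.03 to -0.03. Why the values shift was not tested. Mrpl44 went from -0.56 to -0.39 ± 0.16 in runners, and Mrpl18 went from -0.72 to -0.45 ± 0.15 for running in cKO, with no call by edgeR (adjusted p = 0.677 and 0.322).

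The rest of the mitochondrial translation pathway was looked at for running in cKO, where 46.1% of all genes were below 0 and their median was 0.03. The signs below rest on the TMM factors, without which the fold changes of all genes lay higher in this comparison. Values of these lists without them are not given here. The 5 further ribosome proteins with other names, such as Ptcd3 and Dap3, were all below 0 for running in cKO, with a median of -0.25. Of 15 translation factors 13 were below 0, with a median of -0.38, and Lrpprc, which stabilises mitochondrial messenger RNA, was at -0.76 ± 0.23 (edgeR adjusted p = 0.194). Oxa1l, which inserts new proteins into the inner membrane, was at -0.43 ± 0.18. Of 26 assembly factors 21 were below 0 (median -0.16), with Fastkd2 at -0.58 ± 0.20 and Mterf3 at -0.41 ± 0.17. Of 20 mitochondrial tRNA synthetases and related enzymes 16 were below 0 (median -0.12), with Qrsl1 at -0.51 ± 0.18 and Nars2 at -0.50 ± 0.24. No gene of these lists was called in that comparison.

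With TMM scaling, the RNAs that the ribosome contains and reads were lower too, without a call. These values also depend on the TMM factors, and 46.1% of all genes were below 0 in this comparison. All 13 messenger RNAs of mitochondrial DNA were below 0 for running in cKO, with a median of -0.61, and mt-Nd6 was at -0.97 ± 0.34 and mt-Nd5 at -0.92 ± 0.34. The 2 ribosomal RNAs, mt-Rnr2 and mt-Rnr1, were at -0.50 ± 0.35 and -0.46 ± 0.34, and together they took 13.9% to 31.8% of counts. Of 14 genes of mitochondrial DNA expression 10 were below 0 (median -0.22), with Tfam, the packaging factor, at -0.41 ± 0.19 and Polg2 at 0.41 ± 0.20.

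Among 15 regulators, Ppargc1a, the coactivator PGC-1α, was lower with running over both genotypes (log2 -0.95 ± 0.19, edgeR adjusted p = 0.00988). There 0.814% of all genes were called lower. These are TMM-scaled values, and those without TMM factors are not given here. In WT it was at -0.76 ± 0.26 (edgeR adjusted p = 0.298). In cKO it was at -1.13 ± 0.27 (edgeR adjusted p = 0.112), and Gabpa, which encodes the ETS factor of the GABP complex, was at -0.33 ± 0.13. Atf5, a factor of the mitochondrial stress response, was lower in males (log2 -0.35 ± 0.07, edgeR adjusted p = 0.00968). In the slope on the muscle index, 12 of 13 mitochondrial messenger RNAs, 11 of 15 translation factors, 7 of 26 assembly factors, 7 of 14 genes of mitochondrial DNA expression and 5 of 20 tRNA synthetases were called higher, against 17.3% of all genes. These counts rest on the TMM factors too. Without them 8, 4, 0, 2 and 0 of these lists' genes were called higher and 0, 3, 8, 5 and 8 lower, in the same order, against 5.41% and 51.4% of all genes. Tufm, the elongation factor, had a slope of 0.48 ± 0.05, Ptcd3 of 0.40 ± 0.04 and Tfam of 0.42 ± 0.05.

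The cytosolic ribosomal proteins were looked at in the same way. For running in cKO 41 of the 99 tested were below 0 with a median of 0.04, and in runners the median was 0.06. On the muscle index 7 of 99 were called higher and 11 lower, against 17.3% and 14.3% of all genes, with a median of -0.03 for both. Without TMM factors 2 were called higher and 84 lower, against 5.41% and 51.4% of all genes. By sex their median was -0.21 with TMM, and 91 of 99 were below 0, while the mitochondrial members had a median of 0.03. The difference between the 2 families was not tested.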

How the data were processed

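RNA of mouse Achilles tendon was sequenced in 25 libraries, made with an UltraExpress RNA library kit per the labels' protocols. The authors' deposited tables hold RSEM expected counts per gene, which are whole numbers in the file, and FPKM per gene. Per the submitters' processing notes the reads were handled with STAR 2.7.8a and RSEM 1.3.3 on mouse build GRCm38, with cutadapt 2.3 and FastQC 0.11.8 also named. The deposited FPKM are scaled by gene length and library size, so they were used to compare levels between genes. The strand setting and annotation release are not given in the sources used here.

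The 4 entries for reporter sequences were left out of library sizes and tests. Genes were kept by edgeR's filterByExpr over the 4 groups, which left 19155 of 55487. Counts were scaled with TMM factors and fitted in edgeR 4.0.16 (R 4.3.3) by the quasi-likelihood test, with 4 group means and sex as terms. P-values were adjusted by Benjamini-Hochberg over all genes tested, and an adjusted p under 0.05 was a call. The slope on the muscle index added that index to the same fit. Scripts were tested on simulated data. The precision of each value is limited by the 6 or 7 libraries of a group and by totals of 13193228 to 45724243 counts.

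The members and gene lists were chosen with earlier results of these data known. Members were named if they had one of the 3 smallest p on either side of a comparison, one of the 4 highest or lowest mean FPKM, one of the 4 steepest, flattest or lowest slopes, or a role listed for the ribosome; from the other pathway lists, genes called and up to 2 with the smallest p per comparison were eligible. Alternatives were DESeq2 1.42.0, limma 3.58.1 (voom with library quality weights, and log2 of FPKM plus 1 or plus 0.1), other scalings and filters, added covariates, other model terms, and libraries left out. Upper-quartile scaling, no scaling factors, and leaving out the 2 libraries with the lowest muscle index were chosen after seeing the data. So were, for the slope, the muscle share of counts and the mitochondrial rRNA term. Same-numbered libraries were checked for shared deviations: 4 of 34 pairs correlated above 0.1, so the numbers were not taken to pair samples.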

Additional observations from a re-analysis of the deposited data

Results flagged for a closer look

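In groups of 6 or 7 libraries, 88 sets of values were examined for a lowest or highest library that stood far from the others, and 16 were found. Chance gives about 1 in 20 for independent sets. These sets shared libraries and TMM factors and included members named for their values in these same data. No excess over chance is therefore drawn from the count. Of the 16, 8 came from cKO cage male replicate 2, which had the lowest TMM factor (0.703) and the second highest muscle index (1.105). In that library the summed CPM of the members was 2149 (others of its group 1262 to 1552). Mrpl42 was at 171.5 CPM (others 62.46 to 102.2), Mrpl18 at 94.17 (40.87 to 60.35), Mrpl12 at 87.4 (45.18 to 61.0) and Mrps5 at 54.19 (28.02 to 36.7). Mrpl37 was at 37.76 CPM (22.41 to 27.93), Mrps30 at 35.33 (20.09 to 23.99) and Mrps12 at 11.24 (6.568 to 8.269). The part of the scaling and of muscle in these values was not tested.

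The other 8 were spread over 7 libraries. In WT cage female replicate 1, the library with the second lowest muscle index (-1.50), the ratio of large-subunit to small-subunit CPM was 1.96 (others 2.19 to 2.3) and Mrps18c was at 12.01 CPM (6.62 to 8.796). Mrps18c was also high in cKO running female replicate 3, at 10.38 CPM (6.392 to 7.888). Mrpl44 was at 14.45 CPM in WT running female replicate 3 (8.982 to 11), and Mrpl50 at 19.73 CPM in WT running male replicate 1 (12.59 to 14.44). Mrps2 was low in WT running male replicate 3, at 5.103 CPM (8.696 to 10.1). Mrps6 was at 13.55 CPM in cKO cage female replicate 3 (8.733 to 10.48) and at 14.33 CPM in cKO running female replicate 2 (8.754 to 10.07).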

How the results depend on the processing

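The absence of edgeR calls in the 3 genotype comparisons, running in WT and the interaction held in every alternative run. Members called for running in cKO were 3 with DESeq2, 3 with limma-voom and 1 with no filter. For running over both genotypes they were 2, 1 and 1 with these settings, and 0 to 2 with single libraries left out, 2 without WT running male replicate 1. For sex they were 2, 2 and 1, then 1 with the muscle index as a covariate, 1 without the 2 libraries of lowest muscle index and 0 to 1 with single libraries left out. The median for running in cKO was -0.0124 with no scaling factors and -0.0078 and -0.007 on log2 FPKM plus 0.1 and plus 1. The slope median was -0.0424 with no scaling factors, 0.1524 with the mitochondrial rRNA share as a further covariate, 0.3149 without the 2 libraries of lowest muscle index, and 0.1951 to 0.3073 with single libraries left out. Members called on the slope were 14, higher and lower together, with no scaling factors, 20 on the muscle share of counts, 30 with the rRNA share, and 40 to 66 with single libraries left out. The replicate block gave medians of -0.2124 in runners, -0.2673 for running in cKO and -0.275 for the interaction, and 0 members called in each.

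Signs of single members turned as follows, and the cause was not tested. In runners Mrps33 was at -0.0083 and Mrps28 at -0.0418 with limma-voom, and at -0.0743 and -0.1038 without the 2 libraries apart on component 2. With single libraries left out they ran from -0.0012 to 0.2698 and from -0.0852 to 0.1947. For the interaction Mrps28 was at -0.0414 with limma-voom, and Mrps28 and Mrpl52 at -0.0782 and -0.0577 without the 2 libraries apart on component 2. With single libraries left out these ran from -0.0546 to 0.2663 and from -0.0313 to 0.1655. The 2 libraries apart on component 2 are not named here, and their choice rests on these same data. On log2 FPKM plus 0.1 and plus 1, Mrpl9 was at 0.0222 and 0.0217 for running in cKO and at 0.0755 and 0.0727 for the interaction, and Mrps25 at 0.0189 and 0.0208 for running over both genotypes. With single libraries left out, Mrps12 ran from -8e-04 to 0.1891 and Mrpl52 from -0.0395 to 0.1599 for running in cKO, and Mrpl40 from -0.0072 to 0.1027 for running over both genotypes. On the slope, Mrpl20, Mrpl39, Mrps25 and Mrpl52 were at -0.2643, -0.2143, -0.2103 and -0.1922 with no scaling factors. Mrpl20 was at -0.0244 with upper-quartile scaling and -0.0069 with the stricter filter. It was at -0.0013 without the 2 libraries set apart by reporter counts, and ran from -0.0383 to 0.0739 with single libraries left out. On the muscle share of counts Mrpl20, Mrpl39 and Mrpl52 were at -0.1105, -0.054 and -0.0069, and with the rRNA share Mrpl20 and Mrpl39 at -0.1071 and -0.0072. Mrps6 was at 0.1267 without the 2 libraries of lowest muscle index and ran from -0.2113 to 0.0318 with single libraries left out.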
